A study of Mus musculus with 2 samples.

Results

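The genes described here are 40 genes of DNA replication and mitosis, 40 of the 27998 genes counted in 2 single-cell RNA libraries of newborn mouse forebrain. They were chosen by symbol from a fixed list, and all 40 were found in both libraries. By role they fall into 13 replication genes, 21 mitosis genes and 6 genes of the G1 cyclins and Cks1b. The tissue was the lateral and dorsal cortex with the hippocampus, taken from C57BL/6J mice at postnatal day 0. One library came from wild-type animals and the other from Gmnc-/- littermates. Each library pooled cells of 4 animals from 2 litters, with no mark that ties a cell to its animal. With 1 library per genotype there is no replicate, so no test was possible, and every difference given is one between these 2 libraries. Values in parentheses give the 95% interval, which covers counting error alone.

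A dividing cell passes through G1, copies its DNA in S phase, and separates the copies in mitosis after G2. Cdc6 and Cdt1 load the Mcm2 to Mcm7 helicase onto origins in G1, Gins2 helps to switch the helicase on, Pcna is the sliding clamp of the polymerases, and Rrm1, Rrm2 and Tyms supply nucleotides. Cdk1 with cyclins A2, B1 and B2 drives entry into mitosis, and the Aurora and Polo kinases, kinetochore proteins and spindle proteins then carry it out. In the developing forebrain, radial glia divide at the ventricle, intermediate progenitors divide away from it and give excitatory neurons, and progenitors of ventral origin give GABAergic neurons. Gmnc encodes a coiled-coil protein of the geminin family that starts the differentiation of multiciliated cells, among them ependymal cells.

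The wild-type library kept 10478 cells with a median of 5990 unique molecular identifiers (UMIs, counted RNA molecules), and the Gmnc-/- library 21184 cells with a median of 4484. The share of all barcodes' UMIs that was mitochondrial had a median of 3.29% in the wild-type and 1.21% in the Gmnc-/- library. Predicted doublets, which were removed, made up 4.21% and 19.1% of the filtered cells. Cells with a female pattern of sex-linked genes numbered 7088 and 9675, and those with a male pattern 1585 and 5430, so the libraries differ in their mix of sexes. Of all barcode sequences, 85 occurred in both libraries. Gmnc gave 0.813 (0.626 to 1.04) CPM (UMIs scaled to a fixed library total) in the wild-type and 0.821 (0.66 to 1.01) CPM in the Gmnc-/- library, which checks nothing if the counted 3-prime end lies outside the deleted part. Clusters named from Cajal-Retzius markers held 36 wild-type cells and 1 Gmnc-/- cell, and striatal-like cells, from outside the dissected regions, numbered 472 and 1006. The 40 genes together held 286219 UMIs, 0.363% of the wild-type total, and 425544 UMIs, 0.393% of the Gmnc-/- total.

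Transcription of these genes is tied to the cycle through promoter sequences, so promoters of 6 of the genes are shown. Replication genes are known targets of E2F factors, and many mitosis genes carry a cell cycle homology region (CHR) and CCAAT boxes. RefSeq promoter windows of GRCm38.p6, which run from 250 bases before to 50 bases after the transcription start, were matched for 32 of the 40 genes. The E2F letters searched were TTTCCCGC and TTTGGCGC, the CHR letters TTTGAA and TTTAAA, and the third motif CCAAT, all on both strands. No motif contains another, and TTTAAA reads the same on both strands. E2F letters stood in 6 of 11 replication genes (Cdc6, Cdt1, Mcm3, Mcm5, Mcm6 and Mcm7) and in 0 of 18 mitosis genes, against 1.56% of all 32851 windows. CHR letters stood in 15 of 18 mitosis genes and 3 of 11 replication genes, against 27.6% of all windows. CCAAT stood in 16 of 18 and 8 of 11, against 37.4%, and CHR letters together with CCAAT in 14 of 18 and 3 of 11, against 10.7%. A gene of the lists counts if any of its windows matched, whereas the percentages of all windows count each window alone. Genes with several windows thus had more chances of a match. A match describes the letters in the window and is not a bound site. The promoters of Mcm5 and Mcm6, helicase subunits, show the E2F letters in capitals. Those of Plk1, Cdk1 and Mki67 show CHR letters and CCAAT in capitals, and that of Cks2 shows CCAAT alone. Each is the 160 bases before the RefSeq start, 5′ to 3′ on the gene's own strand. The 6 were chosen after the matches and the levels had been seen.
Mcm5 (chr8:75109349-75109508, plus strand): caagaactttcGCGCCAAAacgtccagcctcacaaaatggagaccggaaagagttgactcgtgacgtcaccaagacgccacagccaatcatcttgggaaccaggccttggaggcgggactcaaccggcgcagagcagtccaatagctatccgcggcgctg
Mcm6 (chr1:128359706-128359865, minus strand): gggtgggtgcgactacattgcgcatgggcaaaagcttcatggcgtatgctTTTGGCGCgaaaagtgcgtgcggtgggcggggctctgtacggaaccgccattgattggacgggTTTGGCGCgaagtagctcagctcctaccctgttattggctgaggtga
Plk1 (chr7:122159275-122159434, plus strand): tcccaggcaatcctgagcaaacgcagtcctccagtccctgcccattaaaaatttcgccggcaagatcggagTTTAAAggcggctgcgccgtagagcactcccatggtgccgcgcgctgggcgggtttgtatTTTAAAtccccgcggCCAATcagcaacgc
Cdk1 (chr10:69352913-69353072, minus strand): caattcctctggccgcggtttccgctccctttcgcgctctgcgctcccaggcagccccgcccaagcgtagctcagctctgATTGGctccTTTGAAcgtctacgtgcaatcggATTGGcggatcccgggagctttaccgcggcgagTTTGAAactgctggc
Mki67 (chr7:135716380-135716539, minus strand): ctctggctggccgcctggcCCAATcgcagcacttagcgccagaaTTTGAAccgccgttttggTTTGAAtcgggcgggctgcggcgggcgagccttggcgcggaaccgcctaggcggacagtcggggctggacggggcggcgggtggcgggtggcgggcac
Cks2 (chr13:51645072-51645231, plus strand): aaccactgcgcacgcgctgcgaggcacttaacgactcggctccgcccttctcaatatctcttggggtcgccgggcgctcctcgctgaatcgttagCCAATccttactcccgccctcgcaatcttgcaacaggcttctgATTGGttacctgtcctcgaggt

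Levels were first compared in progenitor-like cells, 3687 wild-type and 7855 Gmnc-/- cells in clusters named from markers. They comprise radial glia and astroglia-like (1604 and 3216 cells), intermediate progenitor-like (835 and 2039), GABAergic progenitor-like (631 and 1179) and oligodendrocyte lineage-like cells (331 and 647), and a cluster led by Egfr and Olig2 (286 and 774). The clusters were built without cell cycle genes. Progenitor-like cells had a median depth of 8803 UMIs in the wild-type and 5772 in the Gmnc-/- library. UMIs were summed per library and divided by the class total to give CPM. Ratios are Gmnc-/- over wild-type, log2 ratios have 5 CPM added to both values, and a gene counts as called past 1.5-fold if it also reached 20 CPM in either library. Of the 40 genes 37 reached that level, and 1 was called higher and 5 were called lower. Among all 8029 genes compared in these cells, 4.51% were called higher and 3.66% lower. Over all cells the counts were again 1 and 5, of 35 genes, beside 5.27% and 6.1% of 8164 genes.

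As a group the replication genes stood at nearly the same level in both libraries. Their summed level was 732 CPM (723 to 741) in wild-type and 710 CPM (703 to 718) in Gmnc-/- progenitor-like cells, and 0 of the 11 that could be compared were called in either direction. Their median log2 ratio was 0.09, beside 0.17 for all genes compared. Members differed among themselves. Mcm3, a helicase subunit, stood at 58.8 CPM in wild-type and 75.8 CPM in Gmnc-/- cells, a ratio of 1.29 (1.22 to 1.36). Mcm4 stood at 43.2 and 50.7 CPM, Mcm7 at 110 and 117 CPM, and Mcm6 at 75.6 and 76.5 CPM, where the ratio's interval spans 1 (0.963 to 1.06). The helicase subunits thus differed by 1.29-fold at most. Pcna stood at 70.9 CPM in wild-type and 51.1 CPM in Gmnc-/- cells, a ratio of 0.72 (0.681 to 0.761). Tyms, thymidylate synthase, went with it at 69.9 and 47.4 CPM, a ratio of 0.679 (0.641 to 0.718). The subunits of ribonucleotide reductase parted, with Rrm2 at 94.9 and 67.4 CPM (ratio 0.71, 0.677 to 0.745) and Rrm1 at 95.3 and 103 CPM (ratio 1.08, 1.04 to 1.13). The licensing factors were too low to be called: Cdc6 had 9.28 and 14.5 CPM and Cdt1 12.8 and 10.8 CPM.

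The mitosis genes also had nearly equal sums, 3163 CPM (3145 to 3181) in wild-type and 3221 CPM (3205 to 3237) in Gmnc-/- progenitor-like cells, but single members stood far apart. Of 21 genes 1 was called higher and 4 lower, and their median log2 ratio was -0.07. Mki67 (chr7:135689784-135716361), which coats mitotic chromosomes and encodes the proliferation marker Ki-67, stood at 203 CPM in wild-type and 343 CPM in Gmnc-/- cells. Its ratio of 1.69 (1.64 to 1.74) was the only one called higher. Cdk1 (chr10:69335146-69352938), the kinase of mitotic entry, stood at 135 CPM in wild-type and 58.2 CPM in Gmnc-/- cells, a ratio of 0.432 (0.413 to 0.453). Cks2 (chr13:51645232-51650660), a small protein that binds Cdk1, stood at 223 and 102 CPM, a ratio of 0.456 (0.44 to 0.472). The kinase and its binding partner were thus both at less than 0.5 of the wild-type level. Aurkb, the kinase of the chromosomal passenger complex, stood at 54.1 and 30.5 CPM (ratio 0.565, 0.528 to 0.604). Cenpa, the histone variant of centromeres, stood at 181 and 116 CPM (ratio 0.643, 0.621 to 0.666). These 4 were the mitosis genes called lower.

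The other mitosis genes stayed inside 1.5-fold, on either side of 1. Cdc20, which activates the anaphase-promoting complex, stood at 92.5 CPM in wild-type and 63.5 CPM in Gmnc-/- cells, Ccna2 at 76.3 and 56.9 CPM, Ccnb2 at 65.2 and 48.8 CPM, and Ccnb1 at 95.4 and 84.0 CPM. Birc5, the passenger protein survivin, stood at 156 and 119 CPM. Bub1b, a spindle checkpoint kinase, stood on the other side at 46.7 and 56.5 CPM (ratio 1.21, 1.14 to 1.29). Cenpf, a large kinetochore protein, stood at 335 and 448 CPM (ratio 1.34, 1.31 to 1.37), and Cenpe, a kinetochore motor, at 123 and 157 CPM. Top2a, which untangles chromosomes, stood at 557 and 662 CPM (ratio 1.19, 1.17 to 1.21), Prc1, a bundler of spindle microtubules, at 234 and 269 CPM, and Tpx2, a spindle assembly factor, at 190 and 213 CPM. Mki67 UMIs per Top2a UMI, a quantity free of the class total, were 0.365 (0.355 to 0.375) in wild-type and 0.518 (0.509 to 0.528) in Gmnc-/- progenitor-like cells. Nusap1, Bub1 and Aurka had ratio intervals that span 1.

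Among the G1 cyclins and Cks1b, 1 of 5 genes that could be compared was called, and it was lower. Cks1b (chr3:89415472-89418383), the paralog of Cks2 that also serves the turnover of the inhibitor p27, stood at 137 CPM in wild-type and 77.9 CPM in Gmnc-/- cells, a ratio of 0.568 (0.544 to 0.592). Ccnd2 stood at 1436 and 1777 CPM (ratio 1.24, 1.22 to 1.25), Ccnd3 at 43.7 and 50.7 CPM, and Ccnd1 at 101 and 99.5 CPM, a ratio whose interval spans 1 (0.943 to 1.03). Of the cyclins that start S phase, Ccne2 stood at 16.6 and 24.5 CPM and Ccne1, too low to be called, at 15.8 and 16.4 CPM. Cks1b and Cks2 encode closely related proteins, and how the authors' counting shared reads between them is not given in the sources used here.

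Scaling by the median of ratios in place of the class total moved the median of all genes in progenitor-like cells by -0.15 on the log2 scale. Under it 8 of the 37 genes (Bub1, Hmmr, Mcm2, Mcm5, Mcm6, Mcm7, Rrm1 and Tpx2) went from above to below 0, and the calls became 0 higher, with Mki67 at a log2 ratio of 0.58, and 9 lower, with Pcna, Tyms, Rrm2 and Cdc20 added. The share of all genes called under this scaling is not given here, so these counts cannot be set against it. The median of the replication genes went from 0.09 to -0.07. Directions of genes with ratios near 1 thus depend on the scaling, while Cdk1 stayed between -1.3 and -0.92, Cks2 between -1.26 and -0.98 and Mki67 between 0.58 and 0.93 over the 12 alternatives run.

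**Figure D1:**
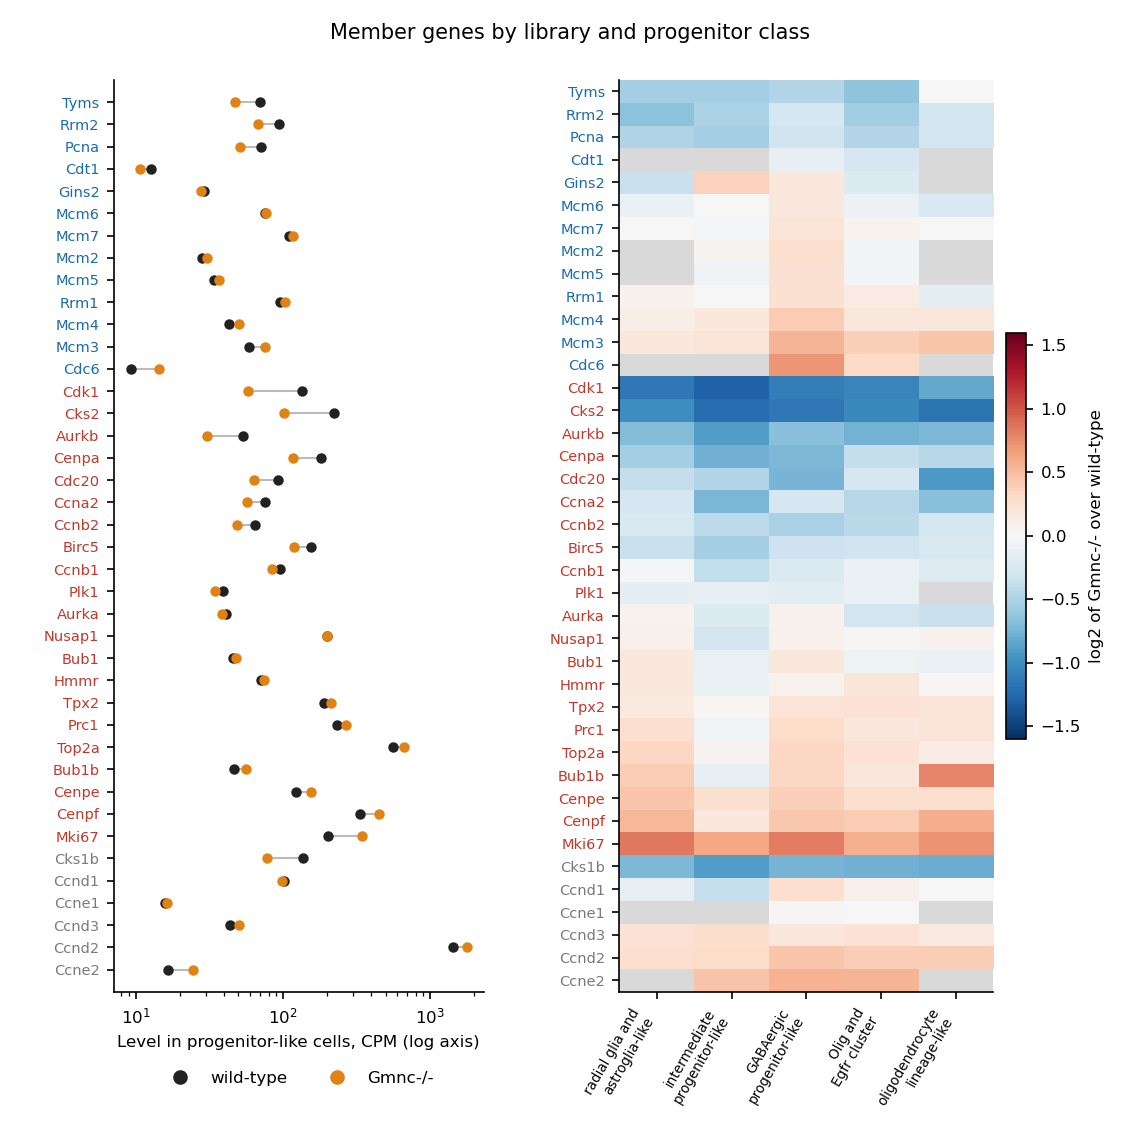
Level of each of the 40 genes in progenitor-like cells in CPM on a log axis, wild-type in black and Gmnc-/- in orange (left), and log2 ratio of Gmnc-/- over wild-type in each of the 5 progenitor classes (right, grey where the gene was under 20 CPM in both libraries). Names are blue for replication, red for mitosis and grey for G1 cyclins and Cks1b. Cdk1, Cks2, Aurkb and Cks1b are blue across all 5 classes and Mki67 is red across all 5.

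The differences of the most divergent genes recurred in each progenitor class, although the classes share the same 2 libraries and are no replicates. Of 32 genes compared in all 5 classes, 12 had ratios below 1 in all 5 and 9 had ratios above 1 in all 5. The interval lay wholly below 1 in all 5 classes for 7 (Cdk1, Cks2, Cks1b, Aurkb, Cenpa, Cdc20 and Ccna2) and wholly above 1 for 4 (Mki67, Cenpf, Mcm3 and Ccnd2). The same counts over all genes are not given here, so this recurrence is not shown to be particular to these genes. Mki67 stood at 115 and 211 CPM in radial glia and astroglia-like, 147 and 229 CPM in intermediate progenitor-like, 443 and 788 CPM in GABAergic progenitor-like, 394 and 588 CPM in the Egfr and Olig2 cluster, and 112 and 187 CPM in oligodendrocyte lineage-like cells, wild-type first. Cdk1 stood at 102 and 43.5, 104 and 39.5, 255 and 115, 208 and 97.7, and 48.3 and 25.1 CPM in the same order. In every class Mki67 was above and Cdk1 below the wild-type level, while within each library both genes were highest in GABAergic progenitor-like cells. Cks2 was at 151 and 73.5 CPM in radial glia and astroglia-like cells and 438 and 195 CPM in GABAergic progenitor-like cells. Pcna was at 45.3 and 31.0 CPM and at 150 and 119 CPM in the same classes, and Mcm3 at 38.9 and 44.5 CPM and at 122 and 180 CPM.

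Calls by class stayed close to those of the pool. Radial glia and astroglia-like cells had 1 gene higher and 5 lower of 34, beside 5.44% and 4.21% of all genes. Intermediate progenitor-like cells had 1 and 6 of 37, beside 5.89% and 4.45%, and GABAergic progenitor-like cells 2 and 6 of 40, beside 6.66% and 3.73%. The Egfr and Olig2 cluster had 0 and 5 of 40, beside 7.64% and 3.65%, and oligodendrocyte lineage-like cells 2 and 6 of 32, beside 5.06% and 3.29%. In each class the lower count was the larger of the pair, whereas among all genes the higher count was. Some genes changed side between classes: Ccnd1 stood at 71.3 and 54.1 CPM in intermediate progenitor-like but at 59.6 and 72.7 CPM in GABAergic progenitor-like cells.

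Outside the progenitors most of the lower genes kept their direction in each class compared, and the higher ones did so in most classes. Of the 8 other classes with 50 or more cells in both libraries, Cdk1 was below the wild-type level in 5 of 5 in which it could be compared, Cks2 in 6 of 6, Cks1b in 6 of 6, Aurkb in 3 of 3, Cenpa in 5 of 5 and Cdc20 in 5 of 5. Pcna was below it in 7 of 7, Rrm2 in 4 of 4 and Tyms in 3 of 4. Mki67 was above it in 5 of 7, Cenpf in 6 of 7, Mcm3 in 4 of 4 and Ccnd2 in 7 of 8. How often genes outside the list kept their side across these classes is not given here. The classes with Mki67 below it were macrophage-like cells, at 175 and 164 CPM, and meningeal fibroblast-like cells, at 64.1 and 46.7 CPM, with ratio intervals that span 1. In GABAergic neuron-like cells, for example, Mki67 stood at 135 CPM in wild-type and 243 CPM in Gmnc-/- cells, and Cdk1 at 68.4 and 35.1 CPM. Depth and the mitochondrial share also differed between the libraries, and their part in these differences was not tested.

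Gene length moved with these ratios. Over 8019 genes in progenitor-like cells with an annotated length, the log2 ratio and the genomic length had a Spearman correlation of 0.52, and over the 37 members it was 0.68. These are correlations across genes within 1 pair of libraries, and genes are not independent replicates. The median log2 ratio was -0.26 in the shortest of 10 equal bins of gene length (median 3235 bases) and 0.31 in the longest bin. Cks1b spans 2912 bases, Cks2 5429 bases, Cdk1 17793 bases and Mki67 26578 bases. After subtracting the median of all genes in the same length bin, Cdk1 was at -1.22, Cks2 at -0.98, Aurkb at -0.61 and Mki67 at 0.59 in progenitor-like cells. Cks1b at -0.52 and Cenpa at -0.50 were then inside 1.5-fold, so 1 gene was called higher and 3 lower. Over all cells the same adjustment left 0 higher and 2 lower. The shares of all genes called after the adjustment are not given here, so these counts cannot be set against them. Cdk1 kept its distance from the length trend, and much of the spread between short and long members ran along it.

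**Figure D2:**
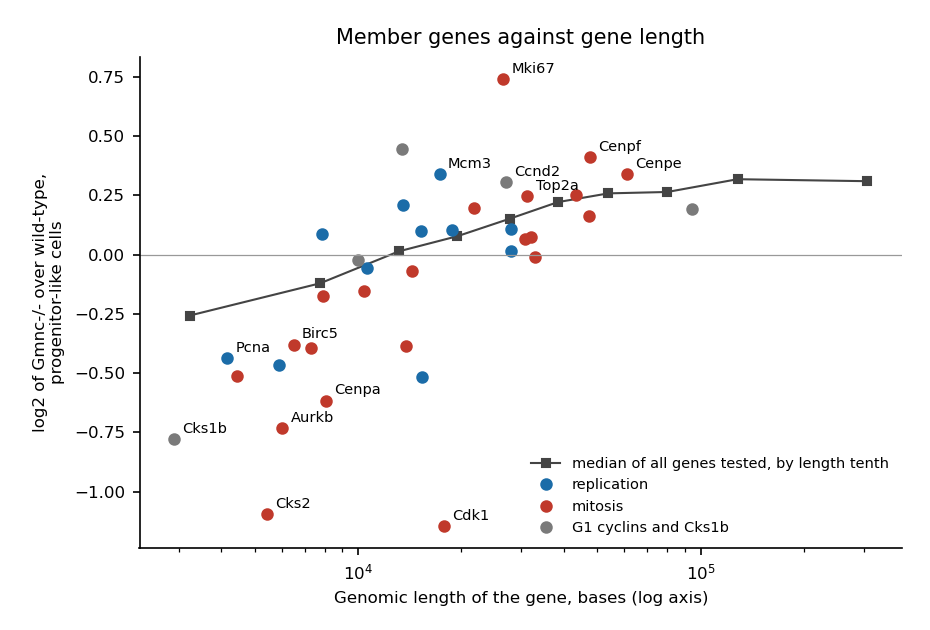
Log2 ratio of Gmnc-/- over wild-type in progenitor-like cells against genomic gene length in bases (log axis) for the 37 genes compared, with the median of all genes tested in each of 10 bins of length as squares joined by a line. The line runs from -0.26 to 0.31, and Cdk1 and Cks2 lie below it and Mki67 above it.

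To compare how many cells were cycling, each cell was thinned to 2000 UMIs and scored as holding replication or mitosis genes if UMIs of at least 2 different genes of that list were drawn. The libraries could hardly be told apart. Replication genes were held by 26.1% of 3540 wild-type (24.6 to 27.6) and 26.1% of 7445 Gmnc-/- progenitor-like cells (25.1 to 27.1), a ratio of 1.0 (0.925 to 1.08). Mitosis genes were held by 31.5% (29.97 to 33.06) and 31.3% (30.2 to 32.4), a ratio of 0.993 (0.924 to 1.07), and both lists by 16.9% and 16.7%. Before thinning the shares were 56.9% and 46.6% for replication and 46.7% and 41.3% for mitosis genes, at median depths of 8803 and 5772 UMIs. Thinning left out 147 and 410 shallower cells. In excitatory neuron-like cells, which are postmitotic, the thinned shares were 3.95% and 4.65% for replication and 2.57% and 2.65% for mitosis genes, at median depths of 5068 and 4188 UMIs.

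Classes differed far more than libraries did. Mitosis genes were held by 75.7% of wild-type and 72.9% of Gmnc-/- GABAergic progenitor-like cells, 54.5% and 55.1% of the Egfr and Olig2 cluster, 20.96% and 20.46% of intermediate progenitor-like, 19.8% and 19.9% of radial glia and astroglia-like, and 13.8% and 17.2% of oligodendrocyte lineage-like cells. Replication genes ran in the same order, with 60.4% and 64.6%, 44.4% and 44.5%, 20.6% and 20.1%, 14.2% and 13.2%, and 10.2% and 10.3%. Cells holding replication genes without mitosis genes made up 11.4% and 16.8% of GABAergic progenitor-like cells, a ratio of 1.48 (1.11 to 1.99). Intermediate progenitor-like and radial glia and astroglia-like cells are neighbours that do not differ beyond their intervals in mitosis genes and do in replication genes. Within the GABAergic neuron-like cells, a cluster led by Sp8 and Dlx genes had 32.6% and 34.9% of cells with mitosis genes. A cluster led by Adarb2 and Erbb4 had 5.59% of 161 wild-type and 12.7% of 597 Gmnc-/- cells, a ratio of 2.28 (1.14 to 5.17), and its replication share of cells was 4.35% and 10.4% (ratio 2.39, 1.09 to 6.19). In that cluster 9 of 16 mitosis genes were called higher, beside 6.57% of all genes. Doublets were removed at unequal rates in the libraries, and their part in that difference was not tested.

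**Figure D3:**
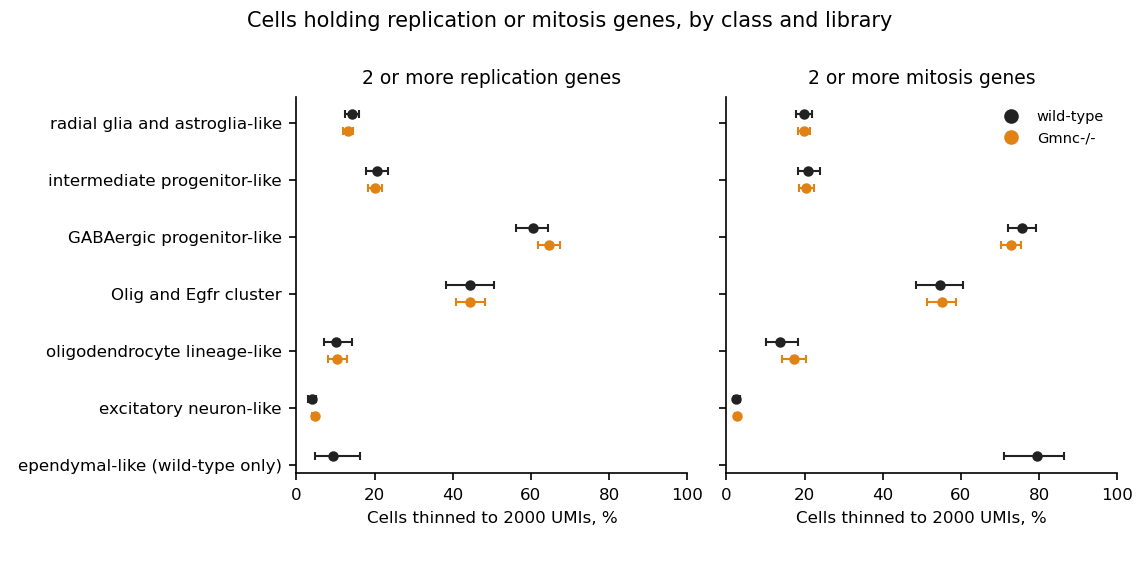
Percentage of cells, thinned to 2000 UMIs, that hold 2 or more replication genes (left) or 2 or more mitosis genes (right), by class, wild-type in black and Gmnc-/- in orange, with exact 95% binomial intervals as bars. The intervals of the 2 libraries overlap in each progenitor class, and GABAergic progenitor-like cells reach 75.7% and 72.9% for mitosis genes.

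The order of the genes by their levels in cells of different states was similar in the libraries, with some neighbours exchanged. Progenitor-like cells were sorted into those holding replication genes only, both lists, mitosis genes only or neither, leaving out the gene under study from its own list. The ratio of a gene's level in mitosis-only to that in replication-only cells then placed it. Because the other genes of the same lists sorted the cells, a gap between the lists was largely built in. The ratio does not measure timing. Cdt1 had 0.208 in wild-type and 0.176 in Gmnc-/- cells, Cdc6 0.279 and 0.161, and the helicase subunits Mcm2, Mcm4 and Mcm6 0.298 and 0.280, 0.301 and 0.317, and 0.304 and 0.303. Pcna followed with 0.488 and 0.448. Rrm2 with 1.47 and 1.504 and Rrm1 with 1.497 and 1.29 lay between the lists. Rrm2 peaked in cells holding both lists, at 288 and 224 CPM, against 89.5 and 60.6 CPM in replication-only cells. All 21 mitosis genes had ratios of at least 9.29 in wild-type and 9.81 in Gmnc-/- cells, with Cdk1 and Top2a (9.65 and 9.97) lowest. Ccnb1 at 60.9 and 93.0 and Hmmr, a spindle protein, at 178.5 and 102.2 were among the highest. Both ratios are imprecise, as the levels in replication-only cells were near the floor. They were 5.0 and 3.14 CPM for Ccnb1 and 1.25 and 2.47 CPM for Hmmr. Across the 40 genes the ratios of the libraries had a Spearman correlation of 0.969, a description over genes that are not independent. The gap between the lists that comes with the sorting contributes to it.

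The D and E cyclins lay on the replication side. Ccne2 had a mitosis-only over replication-only ratio of 0.235 in wild-type and 0.401 in Gmnc-/- cells, Ccne1 0.524 and 0.498, Ccnd1 0.691 and 0.762 and Ccnd2 0.91 and 0.864. Ccnd3 had its highest level in cells holding neither list, 51.4 and 59.4 CPM, and Ccnd1 in replication-only cells, 157 and 139 CPM. Cks1b lay at 2.70 and 2.79, between the lists, whereas Cks2 lay with the mitosis genes.

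**Figure D4:**
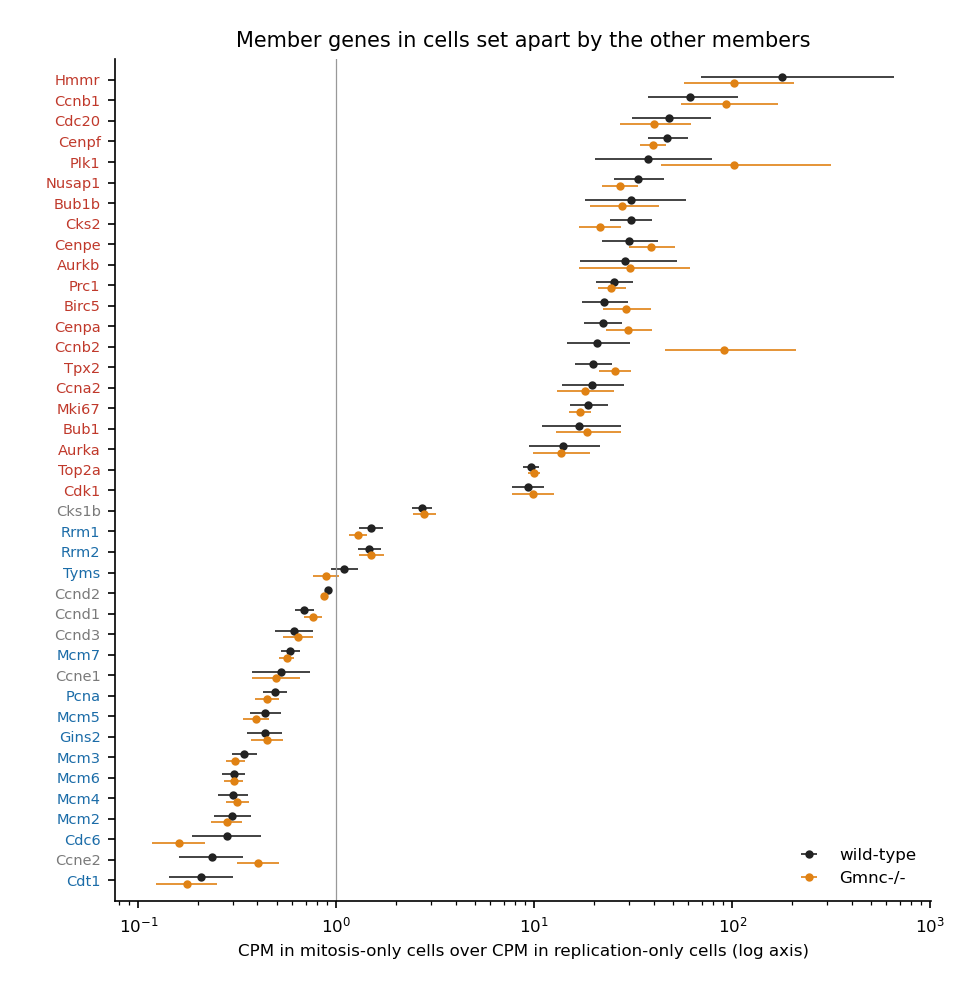
Ratio of each gene's CPM in mitosis-only over replication-only progenitor-like cells, on a log axis, wild-type in black and Gmnc-/- in orange, with exact conditional 95% intervals as bars. Names are blue for replication, red for mitosis and grey for G1 cyclins and Cks1b; Cdt1 is lowest in wild-type at 0.208 and all mitosis genes lie above 9.

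The differences in level between the libraries were present within cells of one state. Among mitosis-only cells, Mki67 stood at 496 CPM in wild-type and 929 CPM in Gmnc-/- cells (ratio 1.87, 1.80 to 1.95), Cdk1 at 347 and 155 CPM (0.446, 0.417 to 0.478) and Cks2 at 666 and 333 CPM (0.50, 0.477 to 0.524). Among cells holding both lists, Mki67 stood at 484 and 867 CPM and Cdk1 at 285 and 136 CPM. So the unequal levels of these genes went with near-equal shares of cells holding mitosis genes. Within a state their ratios lay on the same side of 1 as in all progenitor-like cells. For Mki67 the ratios lay further from 1 than in the pool. They ran from 1.79 (1.72 to 1.86) in cells holding both lists to 2.55 (2.06 to 3.2) in cells holding neither. Cenpf, at 1064 and 1593 CPM in mitosis-only cells, and Aurkb, at 124 and 75.1 CPM, also kept their side there. Ccnb1 stood at 304 and 292 CPM, with a ratio interval that spans 1 (0.904 to 1.02).

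The balance of replication against mitosis was measured as the replication share, the UMIs of the 13 replication genes over those of the 13 replication and 21 mitosis genes. In radial glia and astroglia-like cells it was 17.7% (17.4 to 18.1) in wild-type and 15.3% (15.01 to 15.63) in Gmnc-/- cells, a difference of -2.40 percentage points (-2.88 to -1.92). In intermediate progenitor-like cells it was 20.8% and 21.9%, a difference of 1.04 points (0.354 to 1.72), the other way. The Egfr and Olig2 cluster had 18.6% and 17.1%, a difference of -1.42 points (-2.07 to -0.778). GABAergic progenitor-like cells had 18.8% and 18.9% and oligodendrocyte lineage-like cells 18.7% and 17.4%, with intervals of the difference that span 0. Within each library the intermediate progenitor-like cells had the highest share of the 5 progenitor classes. These differences moved with the way they were computed: without Mki67 and Top2a it was -1.38 points (-1.97 to -0.797) in radial glia and astroglia-like cells, -0.22 (-1.03 to 0.591) in the Egfr and Olig2 cluster and 2.29 (1.71 to 2.86) in GABAergic progenitor-like cells. The intermediate progenitor-like difference changed sign when each cell was weighted equally (-1.23).

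The radial glia and astroglia-like and the intermediate progenitor-like classes are mixtures of clusters with their own share. Each of the other progenitor classes is a single cluster. Of the 3 radial glia and astroglia-like clusters, one led by Grm3, Id3 and Aqp4 had 15.9% and 12.1%, one led by Veph1 and Hgf 19.3% and 19.0%, and one led by Crym and Fxyd1 25.2% and 28.0%. The last was also the one with the lowest mitosis level, 1027 CPM in wild-type and 767 CPM in Gmnc-/- cells. Of the 2 intermediate progenitor-like clusters, the one led by Eomes and Neurog2 had 21.4% and 24.5% and the one led by Adamts19, Tesc and Rmst 20.3% and 19.4%. The name of the second is unsure: none of its marker list is among its 10 leading genes. A cluster with the same leading genes was named radial glia and astroglia-like under the stricter filter and stayed unnamed with doublets kept or with the looser filter. Such a cluster was also unnamed with cell cycle genes in the clustering, with the features that name no gene left out, and at resolution 2. At resolution 2 another cluster with Adamts19, Tesc and Rmst among its leading genes was named intermediate progenitor-like. In the progenitor classes made of several clusters, the difference between the libraries thus varied among the clusters, and its direction was unequal. Excitatory neuron-like cells had 52.4% and 59.5% at low levels of both lists, 169 and 188 CPM for replication and 154 and 128 CPM for mitosis genes, with Mcm7 at 62.9 and 72.8 CPM.

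**Figure D5:**
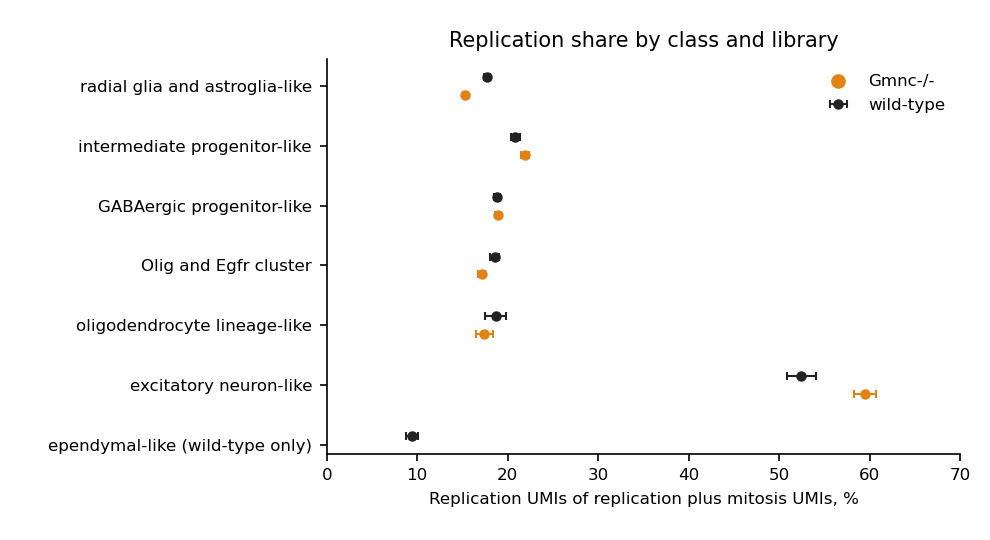
Replication share, the percentage of replication UMIs among replication and mitosis UMIs, by class, wild-type in black and Gmnc-/- in orange, with exact 95% binomial intervals. Progenitor classes lie between 15.3% and 21.9%, excitatory neuron-like cells at 52.4% and 59.5%, and the ependymal-like cells of the wild-type library at 9.41%.

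Ependymal-like cells of the wild-type library held mitosis genes with few replication genes. At resolution 1 their cluster held 163 wild-type and 44 Gmnc-/- cells and was led by the choroid plexus gene Ttr as well as by genes of multiciliated cells. Mitosis genes were held by 64.9% of its thinned wild-type cells (56.8 to 72.4) and 11.6% of its 43 thinned Gmnc-/- cells (3.89 to 25.1), and Cdk1 stood at 181 and 39.3 CPM. At resolution 2 a choroid plexus-like cluster of 38 wild-type and 44 Gmnc-/- cells split off. The ependymal-like cells were then a cluster of 133 wild-type and 0 Gmnc-/- cells, led by Cdc20b, Meig1, Rsph1 and Dnah12, genes of multiciliated cells. A count of 0 allows up to 0.0142% of the Gmnc-/- cells, and under the stricter cell filter the cluster held 95 and 1. Being made of 1 library, the cluster may mark that library as well as a cell type. Of its 117 cells deep enough to thin, 79.5% (71.0 to 86.4) held mitosis genes and 9.40% (4.79 to 16.2) held replication genes, and the replication share was 9.41% (8.74 to 10.1). Top2a stood at 738 CPM, Cks2 at 290 CPM, Cdk1 at 206 CPM and Cenpf at 302 CPM, higher than in wild-type radial glia and astroglia-like cells (297, 151, 102 and 217 CPM). Mki67, at 44.0 CPM, and Ccnd1, at 10.8 CPM, were below the radial glia and astroglia-like levels of 115 and 86.8 CPM. Mki67 UMIs per Top2a UMI were 0.0597 (0.0488 to 0.0723) there and 0.386 (0.366 to 0.407) in radial glia and astroglia-like cells. These cells had a median of 17410 UMIs. Against the wild-type levels of all progenitor-like cells given above, the mitosis genes were split in them. Top2a, Cks2, Cdk1, Cdc20 (139 CPM) and Ccnb1 (103 CPM) were above. Ccna2 (13.2 CPM), Aurkb (16.8 CPM), Birc5 (43.2 CPM), Cenpe (58.4 CPM) and Cenpa (81.6 CPM) were below. So were Cenpf, Mki67, Prc1, Tpx2, Ccnb2 and Bub1b. Multiciliated cells are known to use parts of the mitotic machinery while they amplify centrioles without dividing.

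Among classes with 50 or more cells in both libraries, macrophage-like and meningeal fibroblast-like cells stood out for lower mitosis genes in the Gmnc-/- library. The mitosis sum was lower in smaller classes too, wild-type first. It was 2340 and 285.5 CPM in mural-like cells (46 and 50), and 2338 and 1128 CPM in the ependymal-like cluster at resolution 1 (163 and 44). In macrophage-like cells (168 and 166) the mitosis sum was 2043 CPM in wild-type and 1108 CPM in Gmnc-/- cells, and 17 of 21 mitosis genes were called lower, beside 8.21% of all genes. Aurkb stood there at 50.8 and 7.099 CPM and Top2a at 220 and 126 CPM. In meningeal fibroblast-like cells (142 and 173) the sum was 1065 and 606 CPM, with 11 of 17 called lower beside 5.89%. The thinned share of macrophage-like cells holding mitosis genes was 21.7% and 17.6%, a ratio of 0.809 whose interval spans 1 (0.465 to 1.4). Their median depth was 9547 and 5708 UMIs, and the part of depth in the difference was not tested. Microglia-like cells, the brain's own macrophages, had 29.5% and 28.7% of cells with mitosis genes.

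Other genes of the same processes, from 3 fixed lists, were compared in progenitor-like cells, beside 4.51% of all genes called higher and 3.66% lower. Of 52 further replication genes 45 could be compared, 1 was called higher and 1 lower, and their median log2 ratio was 0.11. The lowest was Dut, which removes dUTP, at 208.5 CPM in wild-type and 132 CPM in Gmnc-/- cells, and the highest was Blm, a helicase, at 37.9 and 60.3 CPM. Of 64 further mitosis genes 62 could be compared, 1 was called higher and 2 lower, and their median was -0.02. Ube2c, the ubiquitin conjugase of the anaphase-promoting complex, stood at 309 and 158 CPM and Mad2l1, a spindle checkpoint protein, at 37.6 and 22.7 CPM, while Arhgap11a stood at 50.6 and 82.0 CPM. Of 13 brakes and G1 kinases 10 could be compared, and 0 were called higher and 3 lower. Those 3 were Btg2, an antiproliferative gene of neurogenic progenitors, at 200.4 and 96.0 CPM, and the inhibitors Cdkn2c at 50.2 and 26.8 CPM and Cdkn2d at 58.5 and 36.4 CPM. They are short genes, of 3951, 6314 and 2998 bases, and short genes ran lower in the length trend. Their log2 ratios were -1.025, -0.80 and -0.62, beside medians over all genes of -0.26 and -0.12 in the 2 shortest bins of length. No length adjustment is given for the 3 lists. Cdk6, the kinase of the D cyclins, stood at 191 and 262 CPM and Cdkn1b, the inhibitor p27, at 178 and 182 CPM. Brakes and drivers both included genes below the wild-type level.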

How the data were processed

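Messenger RNA was counted in 2 libraries of postnatal day 0 forebrain, 1 wild-type and 1 Gmnc-/-. The deposited files hold UMI counts per gene and barcode. The file headers name Cell Ranger 7.1.0 and mm10, as do the submitters' processing notes, and every barcode has at least 500 UMIs. Whether the authors filtered further is not given in the sources used here. Of 28001 features, 3 name no gene (0.059% of wild-type and 0.0208% of Gmnc-/- UMIs). They were left out of all sums and kept for the cell filter, doublet calling and clustering.

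Cells with at least 1000 UMIs and under 10% mitochondrial UMIs were kept. Doublets were called per library with Scrublet in scanpy 1.11.5 (0.8% expected per 1000 barcodes): 460 of 10938 and 4994 of 26178 cells were removed. Both libraries were clustered together from 2000 variable genes, with 339 cell cycle genes left out, 30 components, 15 neighbours and Leiden resolution 1 (igraph 0.11.9). Clusters were named "-like" by the highest of 16 marker lists, and 6 of 34 stayed unnamed. The minimum score of 1.15 for the intermediate progenitor list was set after seeing the data, and it keeps a cluster led by Calb2, Neurod1 and Prox1 (208 and 447 cells) out. The cluster of Egfr and Olig2 is called by its leading genes because it holds markers of 2 lists. Names rebuilt this way may differ from the study's.

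Sums per library and class have exact Poisson intervals, shares exact Clopper-Pearson intervals, ratios exact conditional intervals and differences of shares Newcombe intervals (SciPy 1.17.1). Log2 ratios have 5 CPM added, which understates low genes. No test was made. Gene spans came from GENCODE for GRCm38. The fold rule and the intervals of ratios and shares were tested on counts simulated from the distributions that the intervals assume. Thinning, clustering, cell states, Newcombe intervals and the length adjustment were not part of that test. The members, the other lists and the rule for named genes (all 40 members, and the 4 highest and 4 lowest of each other list at 20 CPM or more) were chosen with earlier results of these data known. Alternatives were looser (500 UMIs, 20%) and stricter (2000 UMIs, 5%) cell filters, doublets kept, each sex pattern alone, clustering with cell cycle genes or at resolution 2, cells picked by class markers, a prior of 1 CPM, no minimum level, median-of-ratios scaling, length adjustment, sums without Mki67 and Top2a, a mean over cells and no thinning. Leaving out the features that name no gene before clustering was added after seeing the data.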

Additional observations from a re-analysis of the deposited data

Results flagged for a closer look

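The replication share moved in opposite directions in different progenitor classes, by differences between the libraries that were not tested against each other. It was -2.40 percentage points (Gmnc-/- minus wild-type) in radial glia and astroglia-like cells and -1.42 points in the Egfr and Olig2 cluster, but 1.04 points in intermediate progenitor-like cells. Within the intermediate progenitor-like cells it was 0.91 points in female-pattern cells and -2.43 points in male-pattern cells, again without a test of that difference.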

How the results depend on the processing

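No paired analysis was possible because each genotype has 1 library. Members past 1.5-fold kept their direction under each alternative run, and 31 of 872 values for single members crossed 1.5-fold. Members nearer 0 did change sign, 8 of 37 with median-of-ratios scaling, 7 after length adjustment and 7 in male-pattern cells. Length adjustment gave 0 members higher and 2 lower over all cells, the stricter filter 0 higher (Mki67 at a log2 ratio of 0.57) and male-pattern cells 3 higher. Shares of all genes called are given for the main settings only. The difference in replication share kept a negative sign in radial glia and astroglia-like cells under each alternative run, at -1.38 without Mki67 and Top2a, -5.80 as a mean over cells, -3.40 in female-pattern cells, -0.95 (-1.96 to 0.0375) in male-pattern cells, -1.13 (-2.61 to 0.352) with cell cycle genes in the clustering and -1.80 in marker picks. In intermediate progenitor-like cells it was 3.15 without Mki67 and Top2a, 2.11 and 2.96 under the looser and stricter filter, 3.52 with cell cycle genes and 2.10 without the features that name no gene, and it reversed to -1.23 with cells weighted equally, -3.56 in marker picks and -2.43 in male-pattern cells. The cause was not tested. In GABAergic progenitor-like cells it was 2.29, 1.48 (mean over cells), -0.62 (looser), 1.56 (stricter), -0.48 (female-pattern), -1.71 (cell cycle genes) and -0.52 (marker picks). In the Egfr and Olig2 cluster it was -0.22, -3.39 (mean over cells), -0.52 (doublets kept), -0.53 (female-pattern), -10.2 (cell cycle genes), -2.26 (resolution 2) and -2.30 (without features that name no gene). In oligodendrocyte lineage-like cells it was -6.34 (mean over cells), 0.93 (looser), 4.86 (stricter), 0.76 (female-pattern) and -21.5 (male-pattern). The median log2 ratio of replication genes was -0.0734 with median-of-ratios scaling, -0.0422 after length adjustment and 0.18 in male-pattern cells, and that of mitosis genes was -0.22 with that scaling and 0.14 in male-pattern cells. Ratios of cells holding replication and mitosis genes were 0.818 and 0.885 without thinning and 1.146 and 1.159 in male-pattern cells, and with doublets kept the ratio for mitosis genes was 1.11. Some values were not available: the Egfr and Olig2 cluster in male-pattern cells and marker picks, and GABAergic progenitor-like cells with doublets kept. With 1 library a genotype, depth, sex mix, doublet rate and gene length trend cannot be told apart from genotype.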
